A study of Homo sapiens with 2 samples.

Results

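The EGR and NR4A immediate early factors described here were 10 genes: EGR1, EGR2, EGR3, NR4A1, NR4A2, NR4A3, IER2, IER3, IER5 and SRF. They were found by symbol in both deposited tables, and the row with the highest mean level was used for each, so that all 10 were recovered among 19096 gene symbols. All 10 reached a mean of at least 1 RPKM (reads per kilobase of a transcript and per size of its library), as did 10272 genes in all. Poly(A)-selected RNA came from P493-6, a human B cell line that GEO's labels call a B-cell lymphoma, whose c-Myc transgene is kept off by tetracycline. The low c-Myc group was 1 library of cells released from repression for 0 h, and the high c-Myc group was 1 library of cells released for 24 h, so they are named below by these times. Both were grown in RPMI 1640 with FBS, both carry the transgene, and synthetic RNAs were added to both by cell number. With 1 library per group no difference has a replicate check and no test between conditions was made. The level of c-Myc and the time since release cannot be told apart.

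Immediate early genes are switched on within minutes of a signal, from promoters that need no new protein. SRF is a DNA-binding factor present before the signal, which sits on CArG boxes with ELK or MRTF cofactors and is switched on through the ERK and actin pathways. CREB, bound to cyclic AMP response elements (CRE), is a further entry point. EGR1, EGR2 and EGR3 are zinc finger factors that bind GC-rich sites and are held back by the corepressors NAB1 and NAB2. NR4A1, NR4A2 and NR4A3 are orphan nuclear receptors, and in B cells NR4A1 is known as a marker of recent antigen receptor signalling. IER2, IER3 and IER5 are short immediate early genes outside both families.

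Promoter sequence was available from RefSeq (GRCh38.p14) for 7 of the 10 genes, as 11 windows of 250 bases before and 50 after a transcript start. EGR2 had 3 windows, NR4A1 and SRF had 2 each, and EGR3, NR4A2 and IER3 had none. Below are the 160 bases before the start, 5′ to 3′, of the genes that hold CArG boxes or several CRE cores, and of IER5, which holds neither. They are shown because the 10 genes did not behave alike although most are textbook targets of SRF or CREB. NR4A1, which is not shown, also held no CArG box or CRE core in its 2 windows. As deposited NR4A1 was 15.2-fold lower at 24 h, while IER5 was 2.52-fold higher. Whether these motifs bear on the ratios was not tested. Capitals mark CArG boxes and CRE cores (TGACG on either strand). The EGR1 stretch is chr5:138465319-138465478 on the plus strand and that of EGR2 is chr10:62816367-62816526 on the minus strand. The SRF stretch is chr6:43171109-43171268, that of NR4A3 is chr9:99821725-99821884 and that of IER5 is chr1:181088540-181088699, all on the plus strand.
EGR1: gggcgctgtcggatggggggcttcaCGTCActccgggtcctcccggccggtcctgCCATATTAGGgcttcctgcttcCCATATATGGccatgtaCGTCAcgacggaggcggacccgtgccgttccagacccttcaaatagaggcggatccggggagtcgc
EGR2: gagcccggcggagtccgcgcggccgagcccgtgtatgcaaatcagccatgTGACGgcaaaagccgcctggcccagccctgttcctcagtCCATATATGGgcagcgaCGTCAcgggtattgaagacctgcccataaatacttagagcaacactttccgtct
SRF: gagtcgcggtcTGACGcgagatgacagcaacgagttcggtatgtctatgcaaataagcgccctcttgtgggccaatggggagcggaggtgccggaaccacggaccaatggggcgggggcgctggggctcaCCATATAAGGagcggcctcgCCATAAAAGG
NR4A3: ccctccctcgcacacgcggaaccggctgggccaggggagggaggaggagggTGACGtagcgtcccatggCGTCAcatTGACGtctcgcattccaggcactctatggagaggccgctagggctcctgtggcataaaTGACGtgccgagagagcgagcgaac
IER5: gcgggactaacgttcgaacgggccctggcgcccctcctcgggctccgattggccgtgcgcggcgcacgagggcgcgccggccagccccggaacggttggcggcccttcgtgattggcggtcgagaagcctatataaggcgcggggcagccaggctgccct

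A CArG box was found in EGR1, EGR2 and SRF, which is 3 of the 11 windows, against 1.29% of all 35116 windows. EGR1 and SRF held 2 in 1 window, and 0.0313% of all windows held 2 or more. The CRE core TGACG was found in EGR1, EGR2, NR4A3, IER2 and SRF, in 5 of the 11 windows, against 24.6% of all windows, and NR4A3 held 4 of them. The full palindrome TGACGTCA, which contains TGACG on both strands, was in none of the 11 windows and in 1.85% of all. Of the 43 other immediate early genes listed for comparison below, 33 had windows. Counted by gene, the CRE core was in 5 of the 7 genes, in 20 of those 33 and in 28.4% of all genes. The core was thus not particular to the genes described here. The full palindrome was in 5 of the 33. A CArG box was in 3 of the 7 genes and in none of the 33. The EGR sites GCGTGGGCG and GCGGGGGCG were searched too, on both strands like every motif here. The first was in none of the 11 windows and in 0.795% of all, and the second was in SRF and in 5.07% of all. The NR4A site AAAGGTCA was in none (1.22% of all), the E-box CACGTG, the site of MYC with MAX, was in 1 EGR2 window (7.26% of all), and TATAAA was in SRF (11.5% of all). These are matches of letters in these windows, not measured binding.

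**Figure D1:**
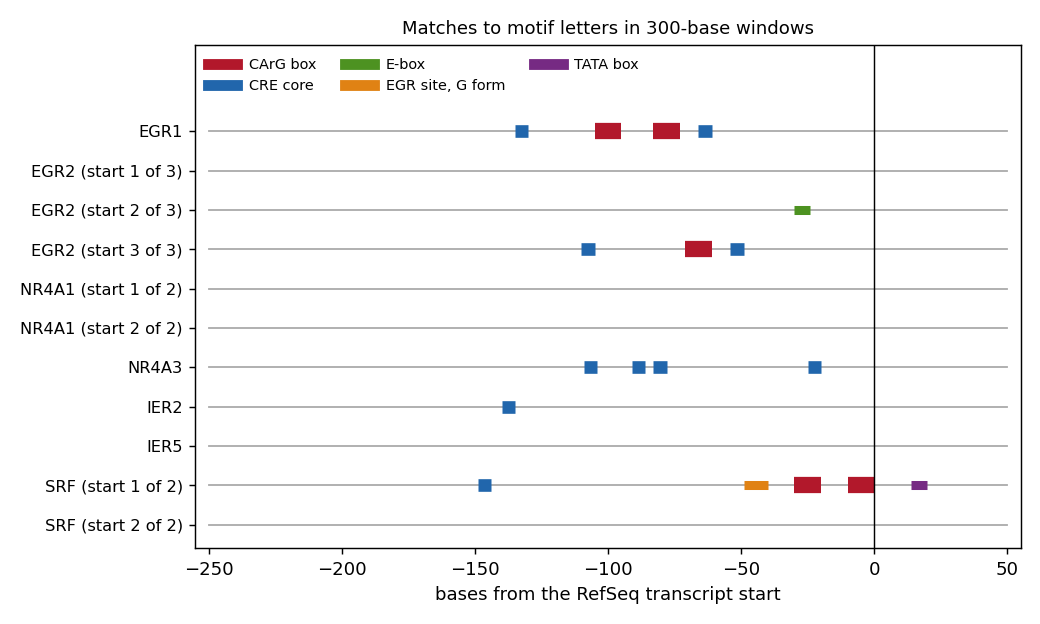
Map of motif matches in the 11 RefSeq windows of the 7 genes, with bases from the transcript start on the horizontal axis and one line per window. CArG boxes (red) stand in EGR1, 1 window of EGR2 and SRF, and CRE cores (blue) in 5 genes; NR4A1 and IER5 hold none of the motifs drawn.

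On the deposited scale the EGR and NR4A genes were mostly far lower at 24 h, while the IER genes and SRF were not, although IER2 passed the lower call once GC content was corrected for. Of the 10 genes, 5 were at least 2-fold lower (EGR1, EGR2, EGR3, NR4A1 and NR4A2), 2 were at least 2-fold higher (IER3 and IER5), and 3 lay between. Over all expressed genes 9.74% were that much lower and 24.9% that much higher. That background was 1001 lower and 2554 higher genes as deposited, 1516 and 2036 when centred on the median gene, and 1749 and 1793 under quantile normalization, where the 10 genes gave 5 lower and 1 higher. The call was a log2 ratio, high over low, at or beyond 1 on values of log2(RPKM + 0.5), a scale that shrinks the differences of weak genes, while folds are given without the 0.5. The median log2 ratio was -1.17 over the 10 genes and 0.22 over all expressed genes. Intervals below are exact 95% counting intervals (binomial for ratios, Poisson for levels) on approximate reads and cover counting error only.

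EGR1 (NM_001964), the zinc finger factor that commonly stands for the whole response, stood at 160 RPKM at 0 h and 2.32 RPKM at 24 h. It was 68.8-fold lower at 24 h, a log2 ratio of -6.10 without a pseudocount (counting interval -6.21 to -6.00) and of -5.83 with it. Its rank among the 10272 expressed genes went from 168 to 8763. EGR2 (NM_001136179), which limits lymphocyte activation, stood at 27.0 and 4.14 RPKM, 6.54-fold lower. Its 4 deposited transcript rows gave log2 ratios without a pseudocount between -2.71 and -2.60. EGR3 (NM_001199881), which overlaps EGR2 in function, stood at 4.28 and 0.805 RPKM, 5.32-fold lower. Within this family the order of the levels was EGR1, EGR2, EGR3 at 0 h, and EGR2, EGR1, EGR3 at 24 h. EGR1 made up 83.6% of the summed RPKM of the 3 genes at 0 h and 32.0% at 24 h, while EGR2 went from 14.1% to 56.9%.

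NR4A1 (NM_173157) had the highest level of the 10 genes at 0 h, at 253 RPKM, rank 94 of the expressed genes. At 24 h it stood at 16.6 RPKM, rank 3641, which is 15.2-fold lower (log2 ratio without a pseudocount -3.93, counting interval -3.97 to -3.88). NR4A2 (NM_006186) stood at 12.6 RPKM and 0.443 RPKM, the lowest level of the 10 genes at 24 h and 28.4-fold lower than before. About 4510 and 162 reads stood behind these NR4A2 levels. NR4A3 (NM_173199) stood apart from its relatives, at 2.35 and 1.70 RPKM, 1.39-fold lower (log2 ratio without a pseudocount -0.47, counting interval -0.65 to -0.30). Its 3 transcript rows ranged from -0.56 to -0.47. NR4A1 remained the main member of its family, with 94.4% of the summed RPKM of the 3 receptors at 0 h and 88.6% at 24 h. The share of NR4A3 went from 0.877% to 9.04%.

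IER2 (NM_004907), a nuclear protein of the early growth factor response, stood at 160 RPKM at 0 h, within counting error of EGR1. Unlike EGR1 it stood at 116 RPKM at 24 h, 1.38-fold lower, and had the highest level of the 10 genes there. IER5 (NM_016545), which acts on the heat shock factor HSF1, stood at 41.2 and 104 RPKM, 2.52-fold higher (log2 ratio without a pseudocount 1.34, counting interval 1.31 to 1.36). IER3 (NM_003897), a regulator of cell survival induced by NF-kB, was the weakest of the 10 at 0 h, at 0.932 RPKM, and stood at 3.57 RPKM at 24 h, 3.84-fold higher. That IER3 ratio rested on about 119 and 469 reads (log2 ratio without a pseudocount 1.94, counting interval 1.65 to 2.25). The tables list IER3 in 3 rows of the same accession, of which 2 were at 0 in both libraries; the handling of reads with several matches was not stated in these sources. SRF (NM_003131), which acts upstream of most of these genes, stood at 19.7 and 27.0 RPKM, 1.37-fold higher (log2 ratio without a pseudocount 0.46, counting interval 0.42 to 0.50). That direction was not kept under quantile normalization, where the log2 ratio of SRF was -0.09, nor after the correction for GC content given below.

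**Figure D2:**
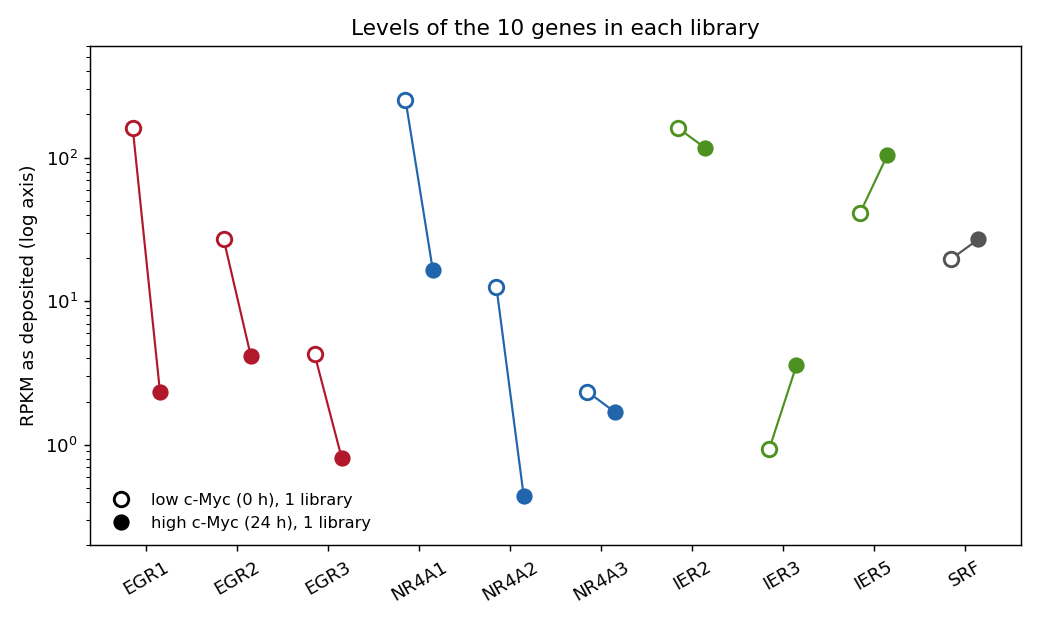
RPKM as deposited, on a log axis, of each gene at 0 h (open points) and at 24 h (filled points), 1 library each. EGR1, EGR2, EGR3, NR4A1 and NR4A2 stood far lower at 24 h, NR4A3, IER2 and SRF stood near their first level, and IER3 and IER5 stood higher.

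Ordered by level, the low c-Myc library ran NR4A1, IER2, EGR1, IER5, EGR2, SRF, NR4A2, EGR3, NR4A3 and IER3. Of these neighbours IER2 (158.8 to 162.2 RPKM) and EGR1 (158.5 to 161.2 RPKM) had overlapping counting intervals. The high c-Myc library ran IER2, IER5, SRF, NR4A1, EGR2, IER3, EGR1, NR4A3, EGR3 and NR4A2, and there EGR2 (3.91 to 4.37 RPKM) and IER3 (3.26 to 3.91 RPKM) overlapped. Summed over the 10 genes the level was 682 RPKM at 0 h and 277 RPKM at 24 h. EGR1 and NR4A1 took 23.4% and 37.2% of that sum at 0 h, and 0.839% and 6.01% at 24 h. IER2 and IER5 took 42.0% and 37.5% at 24 h.

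Ratios across the series went with GC content, so each of the 10 genes was also set beside genes of like transcript GC content (within 1 percentage point). IER2 had a GC content of 62.9%, and the 508 expressed genes like it had a median log2 ratio of 0.93, of which 1.57% were at least 2-fold lower. With GC content corrected for, IER2 stood at -1.31, past the 2-fold call, and SRF (60.9% GC) at -0.13, on the other side of 0. NR4A1 stood at -4.45 after that correction, EGR1 at -5.97, EGR2 at -2.57, EGR3 at -1.90, NR4A2 at -3.69 and NR4A3 at -0.77. IER3 and IER5 stood at 1.21 and 1.36. So corrected, 6 of the 10 genes were at least 2-fold lower, against 9.14% of all genes with a GC value, and 2 were at least 2-fold higher, against 21.2%.

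Per cell, the genes fell into a set that was lower, a pair near equal and a set that was higher. The 46 synthetic RNAs at 1 RPKM or more in both libraries had a median log2 ratio of -2.56 (interquartile range -2.84 to -2.17), so their RPKM at 24 h was 5.88-fold lower. Dividing by that ratio puts the libraries on a scale per cell, since the synthetic RNAs were added by cell number. In such bulk RNA, fewer cells that use a gene and less of its RNA in each cell cannot be told apart. On this scale 97.1% of expressed genes passed the 2-fold call upwards and 0.0876% passed it downwards. Of the 10 genes 5 were higher, 3 were lower and 2 lay between.

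EGR1 was 11.7-fold lower per cell, and 9.58 to 15.2-fold lower when the quartiles of the synthetic RNAs were used in place of their median. NR4A2 was 4.83-fold lower per cell (3.96 to 6.30 over the quartiles). NR4A1 was 2.59-fold lower (2.12 to 3.37). All 3 were also lower in the authors' deposited column renormalized to the synthetic RNAs, by 14.7-fold for EGR1, 6.03-fold for NR4A2 and 3.05-fold for NR4A1. EGR2 was 1.11-fold lower per cell, with the quartiles of the synthetic RNAs spanning 0.911 to 1.45. EGR3 was 1.11-fold higher, spanning 0.848 to 1.35 over the quartiles, and 1.12-fold lower in the authors' deposited renormalized column. For EGR2 and EGR3 the direction per cell thus lay inside the spread of the synthetic RNAs.

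The remaining genes were higher per cell. NR4A3 was 4.25-fold higher (3.26 to 5.18 over the quartiles) and IER2 was 4.27-fold higher (3.27 to 5.21). SRF was 8.08-fold higher, IER5 14.8-fold higher and IER3 22.6-fold higher. The median expressed gene had a per-cell log2 ratio of 2.78, so IER2 (2.10) and NR4A3 (2.18) stood below the median gene, SRF (3.004) just above it, and IER5 (3.88) and IER3 (4.07) above it. MYC itself, the released gene, stood at 836 and 2358 RPKM, which is 2.82-fold higher as deposited and 16.6-fold higher per cell. It already ranked 18 of the 10272 expressed genes at 0 h.

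**Figure D3:**
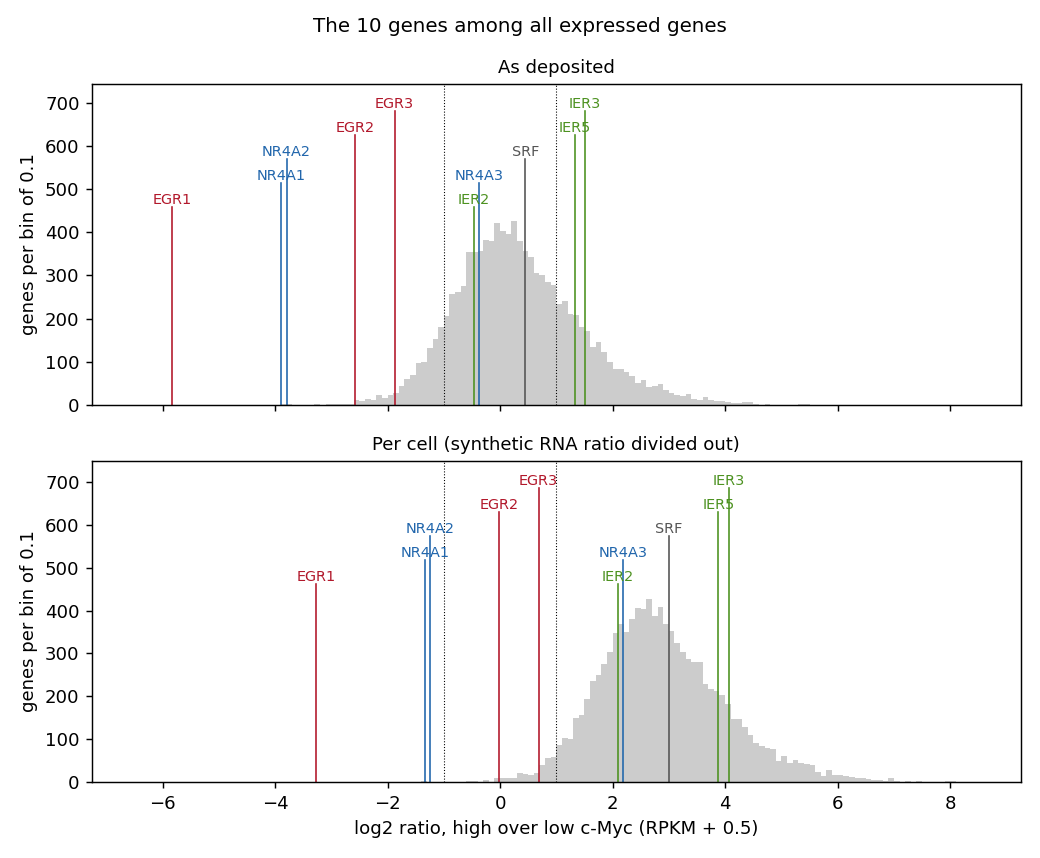
Log2 ratios, high over low c-Myc, of the 10 genes (coloured lines) over the histogram of all 10272 expressed genes in bins of 0.1, as deposited (top) and per cell (bottom); dotted lines mark the 2-fold calls. EGR1, NR4A1 and NR4A2 stand beyond the lower 2-fold line on both scales, while EGR2 and EGR3 cross it only as deposited.

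Of the 10272 expressed genes, 9 passed the lower 2-fold call per cell, and EGR1, NR4A1 and NR4A2 were among them. A further 5 of the 9 were on a list of 43 other immediate early genes: FOS, FOSB, the lymphocyte activation marker CD69, the G protein signalling regulator RGS2 and the cytokine signalling inhibitor SOCS3. SAT1, which starts polyamine breakdown, was the remaining gene. FOS stood at 424 and 4.92 RPKM and was 14.6-fold lower per cell, followed by EGR1 in the order of the log2 ratios. With a pseudocount of 1 NR4A2 stood at -0.68 per cell and fell short of the call, as did FOSB. Both the members and the list of 43 were chosen with results of these libraries known, so the overlap is a description.

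The other immediate early genes were mixed on the deposited scale too. Of the 43 listed, 34 were expressed, of which 17 were at least 2-fold lower and 2 were at least 2-fold higher, with a median log2 ratio of -0.91, beside 9.74% and 24.9% of all expressed genes. After the GC correction 22 were lower and none higher, beside 9.14% and 21.2% of all genes with a GC value. Per cell their median was 1.64, with 21 called higher and 5 called lower, beside 97.1% and 0.0876% of all. Lowest were FOS (-6.29) and CD69 (-5.22), and highest were IER5L, a relative of IER5 (2.09), and JUND (1.38). After the GC correction IER5L stood at 0.92 and JUND at -0.49. JUNB, an AP-1 subunit, stood at 268 and 263 RPKM and JUN at 22.8 and 24.3 RPKM, so both stood near their first level as NR4A3 and IER2 did. After the GC correction JUNB stood at -1.17, past the call like IER2, and JUN at -0.11. JUN, JUNB, FOSB, RGS2, SOCS3 and SAT1 were named after their values were seen.

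The genes that act upstream of EGR1 and NR4A1 had log2 ratios between -1.02 and 2.64 on the deposited scale. The shares to set beside the deposited counts of these lists are the 24.9% higher and 9.74% lower over all expressed genes. Of the 10272 expressed genes, 1516 were lower when centred, 1642 at the same RPKM sum and 1749 under quantile normalization. The higher ones numbered 2036, 1867 and 1793 there. With accessions summed 1107 of 10592 genes were lower and 2616 higher. After the GC correction 9.14% of all genes with a GC value were lower and 21.2% higher. Of 18 genes that signal to SRF and CREB all were expressed, 3 were at least 2-fold higher, none was 2-fold lower and the median log2 ratio was -0.02. The lower ones numbered 2 when centred on the median gene, 4 at the same RPKM sum and under quantile normalization, and 1 after the GC correction. HRAS, a RAS GTPase, stood at 8.78 and 57.4 RPKM (2.64) and RPS6KA4, a kinase of CREB and histone H3, at 16.0 and 74.5 RPKM (2.19). After the GC correction HRAS stood at 1.46 and RPS6KA4 at 1.07. MKNK1, a kinase downstream of ERK, had the lowest ratio (-0.91). Of 13 SRF and CREB partner factors and coactivators, 1 was higher, 1 was lower and the median was -0.30. When centred, at the same RPKM sum and under quantile normalization 4 were lower and none was higher, and with accessions summed 3 were lower and 2 higher. Among the ternary complex factors, which join SRF on promoters, ELK1 stood at 13.1 and 30.3 RPKM (1.18), ELK4 at 9.02 and 4.72 RPKM (-0.87) and ELK3 at 1.18 and 0.865 RPKM (-0.30). The actin-controlled SRF coactivators MKL1 and MKL2 had log2 ratios of 0.24 and -0.27. CREB1 stood at -0.997, CRTC2, a CREB coactivator, at -1.02, and CRTC1 at 0.997. After the GC correction ELK1 (0.96) fell short of the call, and MKL1 (-0.38) and CRTC1 (-0.47) stood on the other side of 0. CREB1 and ELK4 both stood at -0.36 then. Of the 13 factors and coactivators, 1 other than ELK1 was called higher after that correction, and 1 was called lower.

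Partners and known targets of the factors had log2 ratios between -1.47 and 1.72. NAB2, a corepressor that EGR factors induce and that then holds them back, stood at 5.15 RPKM at 0 h and 13.7 RPKM at 24 h (log2 ratio 1.33, and 0.53 after the GC correction). NAB1 stood at 1.69 and 2.59 RPKM (0.49, and 0.92 after the GC correction). RXRA and RXRB, nuclear receptors that pair with NR4A1 and NR4A2, had log2 ratios of 0.51 and 0.37, and that of RXRA was -0.37 after the GC correction. Of 10 EGR1 targets 6 were expressed, of which 2 were at least 2-fold higher (TGFB1 at 1.72, and NAB2) and 1 was at least 2-fold lower (the adhesion receptor CD44 at -1.15), beside 24.9% and 9.74% of all expressed genes. After the GC correction TGFB1 stood at 0.80 and none of the 6 was called higher, beside 21.2% of all genes with a GC value. Of 20 cytoskeletal SRF targets 18 were expressed, with a median log2 ratio of -0.32, and 4 were called lower and 1 higher. At the same RPKM sum and after the GC correction 6 were lower and none higher, and under quantile normalization 7 and none. The background under these settings is the one given above for the upstream lists. CNN2, a calponin, stood at -1.47 and vinculin (VCL) at -1.41, against 0.63 for ACTN1 and 1.11 for TAGLN2, which was 0.89 after the GC correction.

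**Figure D4:**
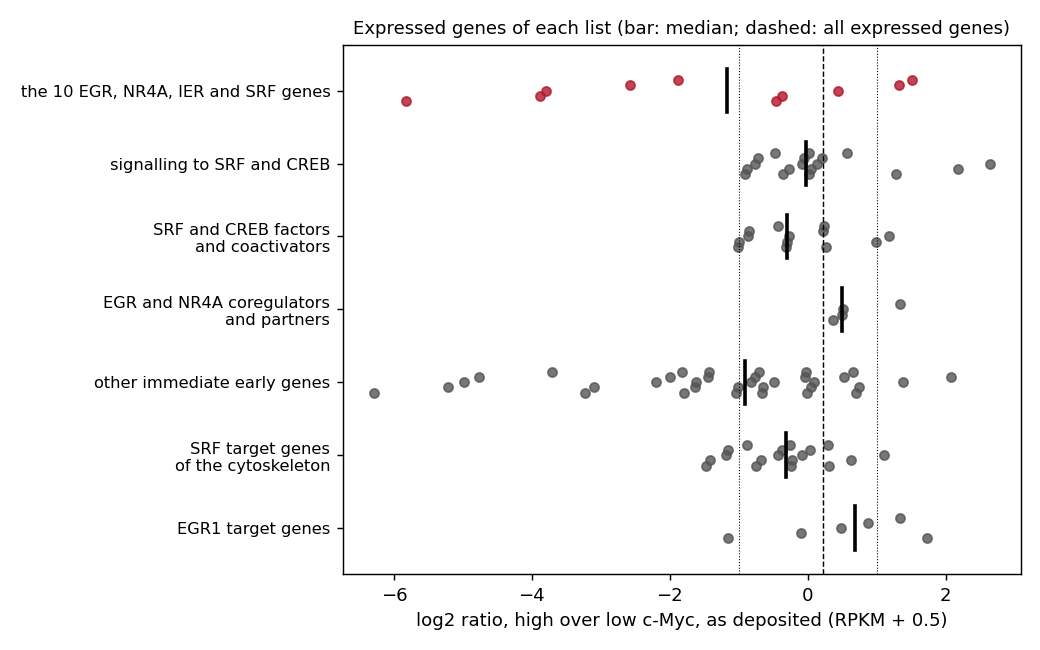
Log2 ratio, high over low c-Myc on the deposited scale, of every expressed gene of each list (points), with the list's median (bar), the median of all expressed genes (dashed line) and the 2-fold calls (dotted lines). The 10 genes and the other immediate early genes reach below -5, while signalling genes, cofactors and targets lie between -1.47 and 2.64.

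Few genes shared the pattern of EGR1 or NR4A1. By distance in log2(RPKM + 0.5) over the 2 libraries, the non-member genes nearest to EGR1 were SAT1 (distance 1.48), CD69 (1.57) and FOS (1.69), and those nearest to NR4A1 were EVI2B (1.07), FCRL5 (1.16) and TXNIP (1.196). No expressed gene lay within 0.5 of either. IER2 had 59 genes within 0.5, with PREX1 (0.011), MYO1G (0.048) and ARPC4 (0.058) nearest. SRF had 451 genes within 0.5, with TBKBP1 (0.0091), TJAP1 (0.017) and ACP1 (0.060) nearest. A pattern over 2 libraries holds a level and a ratio and no more.

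Gene structure and AU-rich elements, which mark many unstable messages, varied among the 10 genes. In GENCODE 29 the median exon number was 2.5 over the 10 genes and 9 over all expressed genes with a match, and the median span on the genome was 5060 bases against 25184. Exon numbers ran from 1 in IER5 to 8 in NR4A2, with 7 in NR4A1 and SRF. The 43 other immediate early genes had medians of 4 exons and 4067 bases. The pentamer AUUUA, the core of AU-rich elements, was in the 3′ UTR of 9 of the 10 genes, against 64.6% of expressed genes and 88.1% of the other immediate early genes. Its median density was 2.35 per kb, against 1.38 and 2.63 in those sets. IER3 had 8.14 per kb, NR4A3 5.69, NR4A1 5.34, IER5 3.32, NR4A2 3.05 and EGR2 1.66. SRF (1.29) and EGR3 (1.07) lay below the median of expressed genes. EGR1 had 1 AUUUA in 1234 bases (0.810 per kb) and IER2 had none. The longer nonamer, TTATTTATT in DNA letters, was in IER5 and SRF, in 6.97% of expressed genes and in 26.2% of the other immediate early genes. Whether these elements bear on the ratios was not tested. The first nonamer of IER5 and of SRF is shown in capitals, 5′ to 3′.
IER5: gtgtcttcctTTATTTATTtatttattta
SRF: atggcaccacTTATTTATTgttgcctttt

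**Figure D5:**
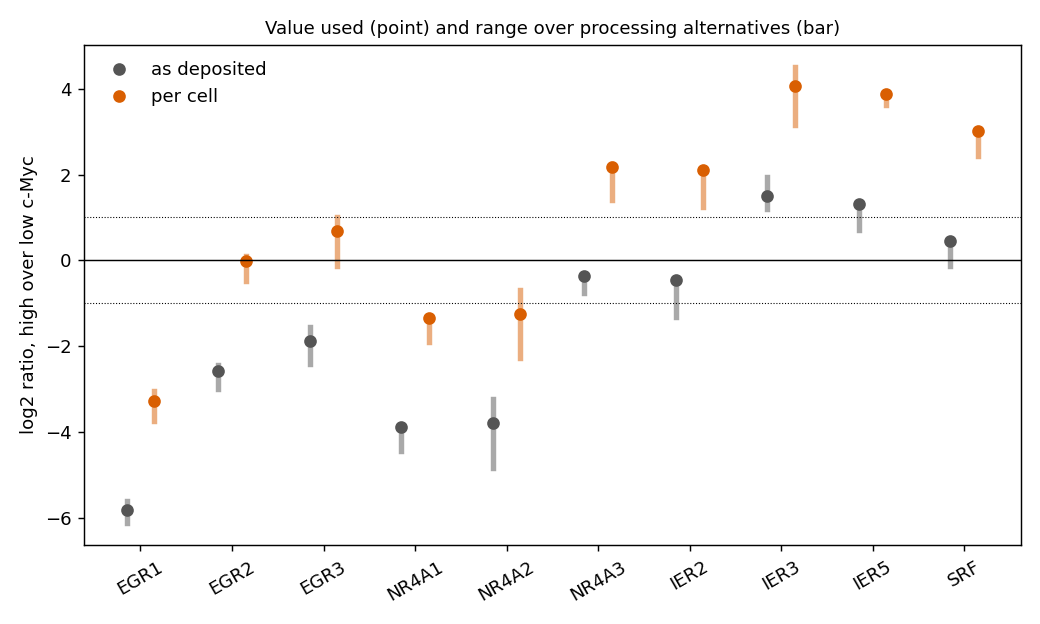
Log2 ratio of each gene as used (points) and its range over processing alternatives (bars), as deposited (grey) and per cell (orange), with dotted lines at the 2-fold calls. EGR1 keeps its call on both scales, IER2 crosses the lower line as deposited (-1.31) and NR4A2 leaves it per cell (-0.68).

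The depth and cell identity of the libraries were checked for these comparisons. Steps between low values implied a depth of about 103110000 reads at 0 h and 105450000 at 24 h, so that a transcript of 2 kb at 1 RPKM rested on about 206 and 211 reads. All 6 B cell markers were at 1 RPKM or more in both libraries, with a summed level of 3219 and 1227 RPKM. The 6 T and NK cell markers summed to 14.1 and 2.26 RPKM, 4 were at 1 RPKM or more at 0 h, and CD3D was at 0 in both. The 6 myeloid markers summed to 151 and 35.6 RPKM, of which CD68, ITGAM and LYZ made up nearly all, while S100A8 was at 0 in both and CD14 stood at 0.070 and 0.075 RPKM. These marker sums were lower at 24 h on the deposited scale, as EGR1 and NR4A1 were. Per cell, none of the expressed markers was called lower, beside 0.0876% of all expressed genes. Called higher were 5 of 6 B cell markers, none of 3 T and NK cell markers and 1 of 3 myeloid markers, beside 97.1% of all. The median per-cell log2 ratios were 1.37 for the B cell, 0.51 for the T and NK cell and 0.20 for the myeloid markers. All of these medians lay below the 2.78 of the median expressed gene. The part of the markers in the result was not tested.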

How the data were processed

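Per the file headers, the authors deposited RPKM in 1 table for each library, beside a column of RPKM renormalized with the synthetic RNAs, without a stated method. Bowtie and the build hg18 are named, per the submitters' processing notes. The libraries kept the strand, per the labels' protocols, but the counting tool, its filters and its use of strand were not given in these sources, so reads of overlapping or antisense genes cannot be told apart. Both tables held 34286 rows, 92 of them synthetic RNAs. Each symbol took its row with the highest mean RPKM, and ratios used a pseudocount of 0.5 and a minimum mean of 1 RPKM. Per-cell ratios subtract the synthetic RNAs' median, after the pseudocount. With 1 library in each group a fixed size, a log2 ratio of 1, replaced a test. Approximate reads are RPKM times length times a depth at which low values fall on whole numbers (49.0% and 46.7% within 0.05, against 10% by chance). Lengths, GC content, exons and 3′ UTRs came from GENCODE 29 by RefSeq accession and are not those of the authors' annotation. GC correction subtracted a lowess fit (fraction 0.3). The call, the depth estimate and the GC correction were tested on simulated data. Those data held no synthetic RNAs, so the per-cell scale was not tested. Named were the 10 genes, the 2 highest and 2 lowest of each list, factors chosen by role, and the 3 nearest genes of EGR1, NR4A1, IER2 and SRF. Some genes this rule names are not reported here. The members and lists were chosen with earlier results of these data known. Alternatives changed the pseudocount, filter, row, scaling and GC handling. The tools were statsmodels 0.14.6, pandas 2.3.3, scipy 1.17.1, numpy 2.4.6 and matplotlib 3.10.9 under Python 3.11.15.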

Additional observations from a re-analysis of the deposited data

How the results depend on the processing

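No paired analysis was possible because each group had 1 library, and for the same reason no library could be left out. On the deposited scale 5 of the 10 genes were at least 2-fold lower under 7 of 9 alternatives, with 4 at a mean RPKM of at least 5 and 6 after the GC correction. The 2 higher genes became 1 at a mean RPKM of at least 5 and 1 under quantile normalization, where IER5 stood at 0.72. Per cell, the 5 higher genes became 3 at a mean RPKM of at least 5, since NR4A3 and IER3 then dropped out, and 6 with a pseudocount of 1, where EGR3 stood at 1.01. That EGR3 call came from the pseudocount, since EGR3 stood at 0.15 without one and at 0.13 with one added after the division. The median log2 ratio of the 10 genes was -1.37 and -1.004 with pseudocounts of 0.1 and 1, -2.57 at a mean of at least 5 RPKM (7 genes) and -1.30 with accessions summed. It was -1.39 after centring, -1.42 at the same RPKM sum, -1.46 under quantile normalization and -1.60 after the GC correction. Centring moved the median of all genes by 0.22, the same RPKM sum by 0.29 and quantile normalization by 0.31, and genes at least 2-fold lower numbered 1001 as deposited and 1516, 1642 and 1749 under these. The higher ones numbered 2554 as deposited and 2036, 1867 and 1793. At a mean of at least 5 RPKM 649 of 6973 genes were lower. With no filter 18791 of 19096 were called higher per cell, a count fixed in advance for silent genes. A gene at 0 in both libraries, such as RXRG, is put at 2.56 because the pseudocount is added before the division. No called ratio of the 10 genes changed sign under any of these alternatives. Per cell, the 9 lower genes were 15 with a pseudocount of 0.1, 18 with one added after the division and 18 in the authors' renormalized column; EGR1 and NR4A1 kept their call in each. An alternative with no pseudocount was added after seeing the data. Depth limits IER3 and NR4A2 most, at about 119 and 162 reads in their weaker library.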

Other observations

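Among relatives outside the 10 genes, EGR4 was weak in both libraries and IER5L in the low c-Myc library. EGR4, the remaining EGR factor, stood at 0.364 RPKM in the low c-Myc library and 0.108 RPKM in the high one, below the minimum for a call. IER5L, which resembles IER5, stood at 0.681 and 4.51 RPKM. RXRG was at 0 in both libraries.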
